A study of Mus musculus with 6 samples.

Results

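The 10 genes described here belong to the NRF2 pathway and to the supply of cystine and glutathione. They were taken by symbol from a table of 38924 genes: Nfe2l2 and Keap1, Slc7a11, Gclc and Gclm, Srxn1, Txnrd1 and Gpx2, and Nqo1 and Hmox1. RNA was sequenced from mouse epidermal cells sorted for CD49f, the integrin alpha 6 chain that anchors basal keratinocytes to the basement membrane. The K14-Cre+ group held 3 libraries of Rnaseh2b flox/flox cells with a Cre recombinase under the keratin 14 promoter, which is active in basal keratinocytes, and cell types in the sort that do not use this promoter keep the floxed alleles. The K14-Cre- group held 3 libraries of Rnaseh2b flox/flox cells without the recombinase, and both groups therefore shared the floxed alleles. Neither age nor strain of the mice is given in the sources used here. Rnaseh2b encodes a subunit of RNase H2, which starts the removal of ribonucleotides from DNA. The comparison asks how epidermal cells with the recombinase differ from those without it. No group had the recombinase without floxed alleles, so effects of the recombinase itself and of the recombined gene cannot be told apart.

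NRF2, the product of Nfe2l2, is a transcription factor that binds antioxidant response elements together with small MAF proteins. KEAP1 holds it at a low level by presenting it to a CUL3 ubiquitin ligase, and oxidants or electrophiles that modify KEAP1 cysteines release it. The targets import cystine, build glutathione, reduce thioredoxin and peroxiredoxins, and clear quinones and heme, and in skin the pathway is known for protecting keratinocytes from ultraviolet light and chemical oxidants.

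Each library held between 22948779 and 31718094 counted reads. Rnaseh2b averaged 4.18 ± 1.02 CPM (counts scaled to a common library size) in K14-Cre+ cells and 21.4 ± 0.599 CPM in K14-Cre- cells (SD, n = 3 each), a log2 fold change of -2.34 with a standard error (SE) of 0.17 and an adjusted p of 0.0102. K14-Cre+ replicate 3 stood apart from the other 2 libraries of its group: the chi-square of its counts per degree of freedom was 69.2 against replicate 1 and 49.4 against replicate 2. Between K14-Cre+ replicates 1 and 2 it was 14.7, and between K14-Cre- libraries 9.30 to 14.2. Values are therefore given for each library, and without this one where that matters. The K14-Cre+ group held 1 female and 2 male libraries by sex-linked genes, and the K14-Cre- group 2 female and 1 male. Basal keratinocyte markers summed to 16286 to 18146 CPM in K14-Cre+ libraries and 16319 to 18923 CPM in K14-Cre- libraries (7 of 7 markers tested, 0 called by edgeR, 1 called higher and 1 lower by DESeq2), with Krt5 the most abundant. Among other cell types, Langerhans and dendritic cell markers summed to 9.88 to 27.7 CPM in K14-Cre+ libraries and 60.8 to 107 CPM in K14-Cre- libraries, with Cd207 at 0 in some library, and T cell markers to 5.46 to 6.51 CPM in K14-Cre+ libraries and 11.1 to 14.8 CPM in K14-Cre- libraries. Fibroblast markers summed to 176 to 1368 CPM in K14-Cre+ libraries and 196 to 811 CPM in K14-Cre- libraries, and endothelial markers to 1.73 to 19.8 CPM in K14-Cre+ libraries and 2.57 to 18.5 CPM in K14-Cre- libraries, with Cldn5 at 0 in some library. Sebaceous gland markers summed to 102 to 149.9 CPM in K14-Cre+ libraries and 172 to 223 CPM in K14-Cre- libraries, and red blood cell markers to 24.0 to 30.7 CPM in K14-Cre+ libraries and 30.1 to 60.1 CPM in K14-Cre- libraries. Their part in the results was not tested.

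Slc7a11, the cystine importer, was higher in K14-Cre+ cells and was the sole gene of the 10 to pass the test. All 10 were among the 15525 genes with enough counts to be tested by edgeR's quasi-likelihood test, with Benjamini-Hochberg adjustment over all of these and a threshold of 0.05. The test called 1 of the 10 higher and 0 lower. Across all genes tested it called 0.406% higher and 0.110% lower. At an unadjusted p under 0.05, 4 of the 10 were higher and 0 lower, against 18.8% of all genes, 10.3% higher and 8.48% lower. The groups did not overlap, with every K14-Cre+ library above every K14-Cre- library, for 6 of the 10, against 14.1% of all genes. The median log2 fold change was 0.30 over the 10 genes and -0.0048 over all genes tested. DESeq2 called 3 of the 10 higher and 0 lower, against 3.99% of all genes higher and 2.06% lower. Here and below, DESeq2's shares of all genes are over the 13999 genes to which it gave an adjusted p. limma-voom called 1 higher and 0 lower, against 0.335% of all genes higher and 0.0902% lower.

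**Figure D1:**
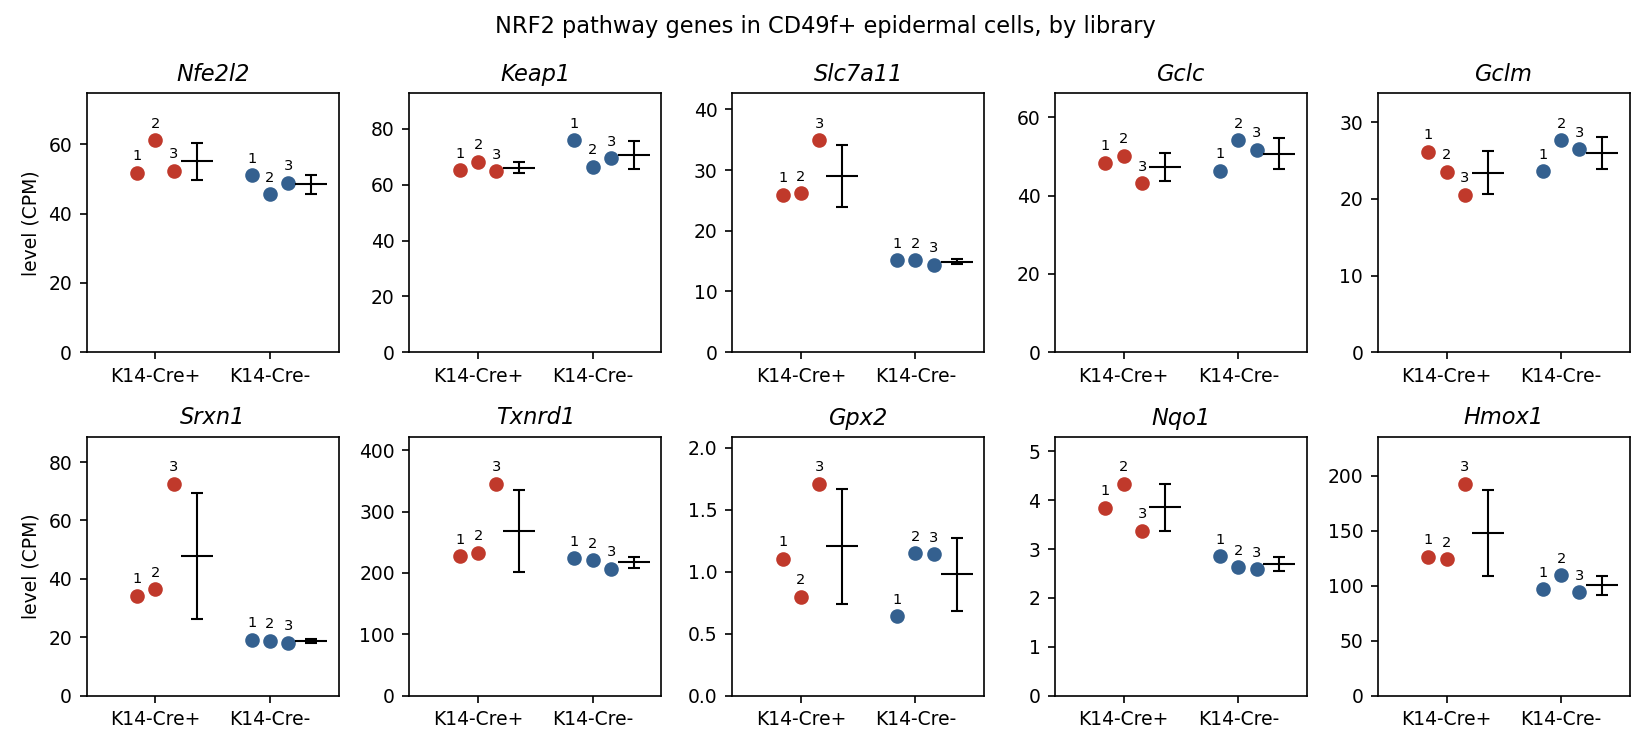
Level of each gene in CPM (vertical axes, from 0) in each of the 3 K14-Cre+ and 3 K14-Cre- libraries (numbered points), with the group mean and SD beside them. Slc7a11, Srxn1, Nqo1 and Hmox1 lie wholly higher in K14-Cre+ libraries, as do Txnrd1 and Nfe2l2 by a narrow margin. K14-Cre+ replicate 3 is the highest library for Slc7a11, Srxn1, Txnrd1, Gpx2 and Hmox1.

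Neither the regulator nor its inhibitor passed the test. Nfe2l2 lies on chromosome 2 (75675513 to 75704641, minus strand, build mm10) and Keap1 on chromosome 9 (21229730 to 21239332, minus strand). Nfe2l2 had 51.7, 61.2 and 52.3 CPM in K14-Cre+ libraries, against 51.0, 45.6 and 48.9 CPM in K14-Cre- libraries. The lowest K14-Cre+ library lay just above the highest K14-Cre- library, and the difference did not pass the test (log2 fold change 0.18, SE 0.09, 95% interval -0.03 to 0.40, adjusted p = 0.324). The log2 fold change was 0.10 without K14-Cre+ replicate 2 and 0.071 with total count scaling. Keap1 had 65.2, 68.2 and 64.8 CPM in K14-Cre+ libraries, against 76.0, 66.5 and 69.5 CPM in K14-Cre- libraries. Its groups overlapped, with a log2 fold change of -0.10 (SE 0.07, 95% interval -0.27 to 0.08, adjusted p = 0.510), which was -0.038 without K14-Cre- replicate 1 and -0.21 with total count scaling. Part of the Keap1 exons, 11.4% of their length, is shared with Gm16754 on the opposite strand, which averaged 13 counts.

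Within each library, Nfe2l2 reads per kilobase were divided by those of Keap1, which needs no scaling between libraries. The ratio was 0.933, 1.06 and 0.950 in K14-Cre+ libraries, against 0.790, 0.808 and 0.828 in K14-Cre- libraries. Every K14-Cre+ ratio was above every K14-Cre- ratio, and the mean log2 ratio was 0.27 higher in K14-Cre+ cells (exact two-sided permutation test, p = 0.1, the smallest p that 3 libraries against 3 allow). Over the 5 such ratios computed in all, the Benjamini-Hochberg adjusted permutation p was 0.125. The 5 include Slc7a11 to Gclc and Srxn1 to Txnrd1, chosen after the values had been seen. Their inclusion makes the adjusted p of the planned ratios smaller. NRF2 protein and its location in the cell, through which the pathway is mainly controlled, were not measured.

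Slc7a11 encodes the light chain of the cystine/glutamate exchanger, which brings in the cystine from which cells make glutathione. It lies on chromosome 3 (50364936 to 50443613, minus strand) with 12 exon blocks. Slc7a11 had 26.0, 26.2 and 34.9 CPM in K14-Cre+ libraries, against 15.2, 15.1 and 14.4 CPM in K14-Cre- libraries. All K14-Cre+ libraries were above all K14-Cre- libraries; the K14-Cre- values spread little. The means were 29.0 ± 5.12 CPM in K14-Cre+ cells and 14.9 ± 0.413 CPM in K14-Cre- cells (SD, n = 3 each), a 1.95-fold difference (log2 fold change 0.96, SE 0.13, 95% interval 0.66 to 1.26, adjusted p = 0.0378). Leaving out K14-Cre+ replicate 1 or 2 or any K14-Cre- replicate ended the call. The adjusted p was then between 0.0605 and 0.234, with log2 fold changes of 0.94 to 1.04. Rnaseh2b, the recombined gene, also lost its edgeR call without K14-Cre+ replicate 2 (adjusted p = 0.0508) or any 1 K14-Cre- replicate (0.0841 to 0.124). Without K14-Cre+ replicate 3 Slc7a11 had a log2 fold change of 0.81 and an adjusted p of 0.00404.

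Slc3a2 encodes the heavy chain that carries the exchanger to the cell surface and also pairs with other amino acid transporters. It had 115, 113 and 133 CPM in K14-Cre+ libraries, against 109, 100.3 and 106 CPM in K14-Cre- libraries, and did not pass the test (log2 fold change 0.20, SE 0.09, adjusted p = 0.287). The ratio of light to heavy chain, in reads per kilobase, was 0.0596, 0.0611 and 0.0689 in K14-Cre+ libraries, against 0.0367, 0.0396 and 0.0359 in K14-Cre- libraries. Again no libraries overlapped, with a mean log2 ratio 0.76 higher in K14-Cre+ cells (exact two-sided permutation test, p = 0.1, adjusted over the 5 ratios 0.125). Light chain reads were thus higher relative to heavy chain reads in each K14-Cre+ library.

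Slc7a11 is also used by melanocytes, in which its loss causes the subtle gray coat colour of mice. Melanocyte markers summed to 774, 778 and 682 CPM in K14-Cre+ libraries, against 381 to 442 CPM in K14-Cre- libraries. Of the 8 markers, edgeR called 6 higher and 0 lower, against 0.406% of all genes higher. DESeq2 called 7 higher, against 3.99% of all genes, and limma-voom 6, against 0.335%. edgeR's count was also 6 with sex as a covariate. It was 2 with total count scaling, 1 in the 1.5-fold test, 2 without K14-Cre+ replicate 1 and 1 without K14-Cre+ replicate 2. Without any 1 K14-Cre- replicate it was 0. Of the 8 markers, 0 were at 0 in any library. In bulk RNA, more cells of a type and more RNA per cell cannot be told apart. The K14-Cre+ library with the highest Slc7a11 level, replicate 3, had the lowest melanocyte sum of its group, and the part of melanocytes in the Slc7a11 result was not tested. Suprabasal keratinocyte markers summed to 93827 to 121361 CPM in K14-Cre+ libraries and 72674 to 93396 CPM in K14-Cre- libraries. Of the 4 tested, edgeR, DESeq2 and limma-voom called 0, and 3 were without overlap higher, against 14.1% of all genes. Their median log2 fold change was 0.37, and their part in the results was not tested. Macrophage markers summed to 146 to 188 CPM in K14-Cre+ libraries and 118 to 131 CPM in K14-Cre- libraries.

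The DNA before the starts of Slc7a11 and Srxn1 is shown because these genes had the highest log2 fold changes of the 10 and hold different motifs. Each is the 250 bases before the RefSeq start on GRCm38.p6, read along the gene, chr3:50443614-50443863 on the minus strand for Slc7a11 and chr2:152105274-152105523 on the plus strand for Srxn1. Capitals mark matches to the searched motifs on either strand.
Slc7a11: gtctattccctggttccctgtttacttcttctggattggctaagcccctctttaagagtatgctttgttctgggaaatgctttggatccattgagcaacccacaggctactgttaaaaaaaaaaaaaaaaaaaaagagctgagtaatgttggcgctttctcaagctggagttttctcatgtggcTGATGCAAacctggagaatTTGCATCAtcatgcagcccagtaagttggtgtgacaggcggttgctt
Srxn1: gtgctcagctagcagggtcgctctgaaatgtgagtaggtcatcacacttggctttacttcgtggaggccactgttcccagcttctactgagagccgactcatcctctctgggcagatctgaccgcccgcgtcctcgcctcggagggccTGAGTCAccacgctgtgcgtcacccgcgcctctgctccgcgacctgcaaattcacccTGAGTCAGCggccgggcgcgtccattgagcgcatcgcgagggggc

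In the Slc7a11 stretch the capitals are both matches to TGATGNAA, the core of the element bound by ATF4 with C/EBP partners, starting 66 and 47 bases before the start, the second on the opposite strand. This core is in 3.97% of the 32851 RefSeq windows of the same length, which run from 250 bases before to 50 after a start. The antioxidant response element core TGACNNNGC had no match in the Slc7a11 window. In the Srxn1 stretch the capitals are matches to the AP-1 site TGACTCA, starting 102 and 45 bases before the start and read there on the opposite strand, a motif held by 5.20% of windows. The match at 45 overlaps one to the NRF2-MAF core TGANTCAGC, which 1.19% of windows hold and which was added after the Srxn1 window had been read. A match says only that these letters are present.

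RefSeq windows were found for 8 of the 10 genes, 10 windows in all. The antioxidant response element core was in 4 of these 10, each of another gene, against 12.4% of all windows. These 4 sites are shown because the core is the sequence NRF2 is known to bind, in capitals with 8 bases on each side. The Nfe2l2 site is on the gene's strand and the other 3 on the opposite one.
Nfe2l2: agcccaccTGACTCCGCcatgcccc
Srxn1: agtgggcaGCTAGGTCAgagtgaga
Gclm: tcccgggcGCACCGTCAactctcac
Txnrd1: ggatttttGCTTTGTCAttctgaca
They start 240 bases before the start in Nfe2l2, 29 after it in Srxn1, 134 before it in Gclm and 92 before the start at base 82859206 in Txnrd1, which has 3 windows. The windows of Nqo1, Keap1 and Gpx2 held none of the 4 motifs searched.

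Neither subunit gene of glutamate-cysteine ligase, the enzyme that sets the rate of glutathione synthesis, differed detectably in RNA between the groups. Gclc, its catalytic subunit, lies on chromosome 9 (77754535 to 77794485, plus strand) and Gclm, its modifier subunit, on chromosome 3 (122245557 to 122269984, plus strand). Gclc had 48.4, 50.2 and 43.2 CPM in K14-Cre+ libraries, against 46.4, 54.2 and 51.7 CPM in K14-Cre- libraries. Gclm had 26.2, 23.6 and 20.5 CPM in K14-Cre+ libraries, against 23.6, 27.7 and 26.5 CPM in K14-Cre- libraries. Both pairs of groups overlapped, and the lowest value of either gene was that of K14-Cre+ replicate 3. The log2 fold changes were -0.10 for Gclc (SE 0.09, 95% interval -0.32 to 0.11, adjusted p = 0.564) and -0.14 for Gclm (SE 0.11, 95% interval -0.41 to 0.12, adjusted p = 0.509). Leaving out single libraries gave -0.16 to -0.043 for Gclc and -0.23 to -0.058 for Gclm, in both cases nearest 0 without K14-Cre+ replicate 3. Total count scaling gave -0.21 for Gclc and -0.25 for Gclm, and neither passed the test under these settings.

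The ratio of catalytic to modifier subunit was 2.99, 3.45 and 3.41 in K14-Cre+ libraries, against 3.18, 3.17 and 3.16 in K14-Cre- libraries, and the groups overlapped (log2 difference 0.05, exact two-sided permutation p = 0.4, adjusted over the 5 ratios 0.4). Slc7a11 was also set against Gclc, a ratio chosen after the values had been seen. It was 0.163, 0.159 and 0.246 in K14-Cre+ libraries, against 0.0995, 0.0849 and 0.0849 in K14-Cre- libraries. K14-Cre+ ratios were all above K14-Cre- ratios (log2 difference 1.05, exact two-sided permutation p = 0.1, adjusted 0.125). This ratio restates the Slc7a11 and Gclc values above, which were known when it was chosen, and is not a separate result.

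**Figure D2:**
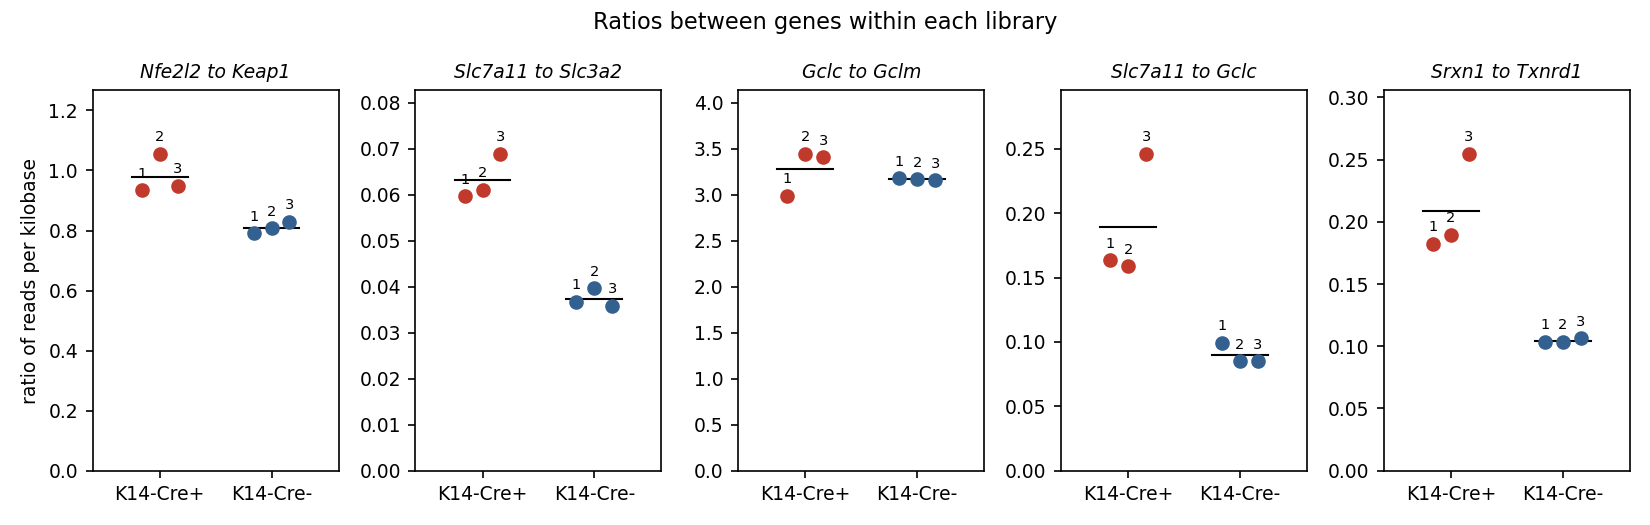
Ratios of reads per kilobase within each library (vertical axes) for the 5 gene pairs, with K14-Cre+ libraries left of K14-Cre- libraries. For 4 of the 5 the K14-Cre+ libraries lie wholly above the K14-Cre- libraries, and for Gclc to Gclm they overlap. Slc7a11 to Gclc and Srxn1 to Txnrd1 were chosen after the values had been seen. No share over other gene pairs was computed to set beside this count.

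Srxn1 encodes sulfiredoxin, which repairs overoxidised peroxiredoxins, and lies on chromosome 2 (152105516 to 152111376, plus strand). Srxn1 had 34.2, 36.5 and 72.6 CPM in K14-Cre+ libraries, against 19.2, 18.9 and 18.2 CPM in K14-Cre- libraries. It had the largest log2 fold change of the 10, with no overlap between the groups, and K14-Cre+ replicate 3 was far above the other 5 libraries. The log2 fold change was 1.35 (SE 0.28, 95% interval 0.68 to 2.01), a 2.54-fold difference that did not pass edgeR's test (adjusted p = 0.0971). DESeq2 did call it (adjusted p = 0.000127). Without K14-Cre+ replicate 3 the log2 fold change was 0.91 and edgeR's adjusted p 0.00252. Calls over all genes also rose with that library left out, from 63 to 288 higher. Srxn1 did not pass with limma-voom (adjusted p = 0.116), total count scaling (0.108) or the 1.5-fold test (0.846). Nor did it pass without any other single library (edgeR adjusted p 0.0868 to 0.345). The difference was present in all K14-Cre+ libraries, of which replicates 1 and 2 exceeded the K14-Cre- mean by 0.87 and 0.96 on the log2 scale and replicate 3 by 1.96.

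Txnrd1, the cytosolic thioredoxin reductase, lies on chromosome 10 (82859206 to 82897724, plus strand). Txnrd1 had 227, 233 and 346 CPM in K14-Cre+ libraries, against 224, 221 and 207 CPM in K14-Cre- libraries. K14-Cre+ replicates 1 and 2 lay barely above the K14-Cre- libraries and replicate 3 well above them. The log2 fold change of 0.30 did not pass (SE 0.17, 95% interval -0.09 to 0.69, adjusted p = 0.361), and it was 0.081 without K14-Cre+ replicate 3 and 0.17 with total count scaling. The ratio of Srxn1 to Txnrd1, also chosen after the values had been seen, was 0.183, 0.190 and 0.255 in K14-Cre+ libraries, against 0.104, 0.103 and 0.106 in K14-Cre- libraries. No K14-Cre+ ratio overlapped a K14-Cre- ratio (log2 difference 0.98, exact two-sided permutation p = 0.1, adjusted over the 5 ratios 0.125). It likewise restates the Srxn1 and Txnrd1 values and is not a separate result.

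Gpx2, a glutathione peroxidase best known from the gut epithelium, lies on chromosome 12 (76792335 to 76795554, minus strand) and was the lowest of the 10. Gpx2 had 36, 18 and 36 counts in K14-Cre+ libraries, against 16, 28 and 30 counts in K14-Cre- libraries, which is 1.11, 0.797 and 1.71 CPM in K14-Cre+ libraries and 0.642, 1.15 and 1.14 CPM in K14-Cre- libraries. The groups overlapped, and no difference was detectable at these counts (log2 fold change 0.29, SE 0.37, 95% interval -0.57 to 1.16, adjusted p = 0.693). Its sign turned without K14-Cre+ replicate 3, to -0.028.

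Nqo1, a quinone reductase often used as a readout of NRF2, lies on chromosome 8 (107388225 to 107403206, minus strand). Nqo1 had 3.84, 4.34 and 3.37 CPM in K14-Cre+ libraries, against 2.85, 2.63 and 2.59 CPM in K14-Cre- libraries. All K14-Cre+ libraries were higher, and in contrast to Srxn1 the lowest K14-Cre+ library was replicate 3. The log2 fold change of 0.52 (SE 0.17, 95% interval 0.12 to 0.92) had an unadjusted p of 0.0174 and did not pass after adjustment (adjusted p = 0.189). The counts behind it were low, from 71 to 125 in K14-Cre+ libraries and from 64 to 71 in K14-Cre- libraries.

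Hmox1 encodes heme oxygenase 1, which breaks heme down to biliverdin, iron and carbon monoxide, and lies on chromosome 8 (75093591 to 75100596, plus strand). Hmox1 had 126, 124 and 193 CPM in K14-Cre+ libraries, against 97.0, 110 and 94.1 CPM in K14-Cre- libraries. All K14-Cre+ libraries were above all K14-Cre- libraries, with replicate 3 the highest. The log2 fold change was 0.56 (SE 0.18, 95% interval 0.14 to 0.98, adjusted p = 0.185), and it was 0.32 without K14-Cre+ replicate 3. DESeq2 gave an adjusted p of 0.0496. Macrophages also use Hmox1, and 6 of the 7 macrophage markers were without overlap higher in K14-Cre+ libraries, against 14.1% of all genes. DESeq2 called 3 of the 7 higher, against 3.99% of all genes, and limma-voom 1, against 0.335%. edgeR called 1, and 2 with no filter beyond 1 count. Its count was 0 with total count scaling, with sex as a covariate and in the 1.5-fold test. It was also 0 without K14-Cre+ replicate 1 or 2 and without any 1 K14-Cre- replicate. The K14-Cre+ macrophage sums were 188, 163 and 146 CPM in replicates 1, 2 and 3, lowest in the library with the most Hmox1, and their part in the result was not tested.

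**Figure D3:**
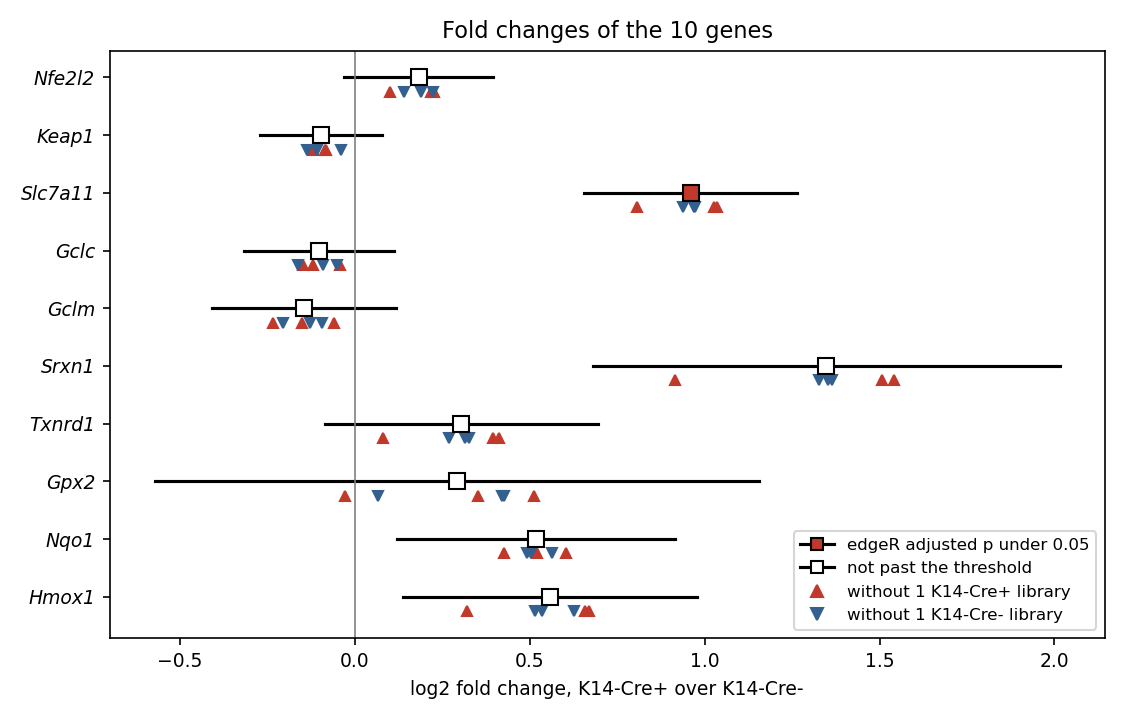
Log2 fold change of each of the 10 genes, K14-Cre+ over K14-Cre- (horizontal axis), with the 95% interval from edgeR's quasi-likelihood test and, as triangles, the value with each library left out in turn. Slc7a11 passed the adjusted threshold, and Srxn1, Hmox1 and Nqo1 have intervals above 0 without passing it.

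The 10 genes did not deviate together across the K14-Cre+ libraries. Relative to the K14-Cre- mean, K14-Cre+ replicate 3 was the highest of all 6 libraries for 5 genes, Slc7a11, Srxn1, Txnrd1, Gpx2 and Hmox1, and the lowest for 3, Gclc, Gclm and Keap1. Profiles over the 6 libraries were compared by the root mean square distance of log2 CPM values centred on each gene's mean, where a smaller distance means a more similar profile. Gclc and Gclm were the closest pair (0.0697), followed by Gclc and Keap1 (0.133) and by Hmox1 and Txnrd1 (0.141). The farthest pair was Srxn1 and Gclm (0.839). These distances describe 6 libraries of which 1 stands apart.

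**Figure D4:**
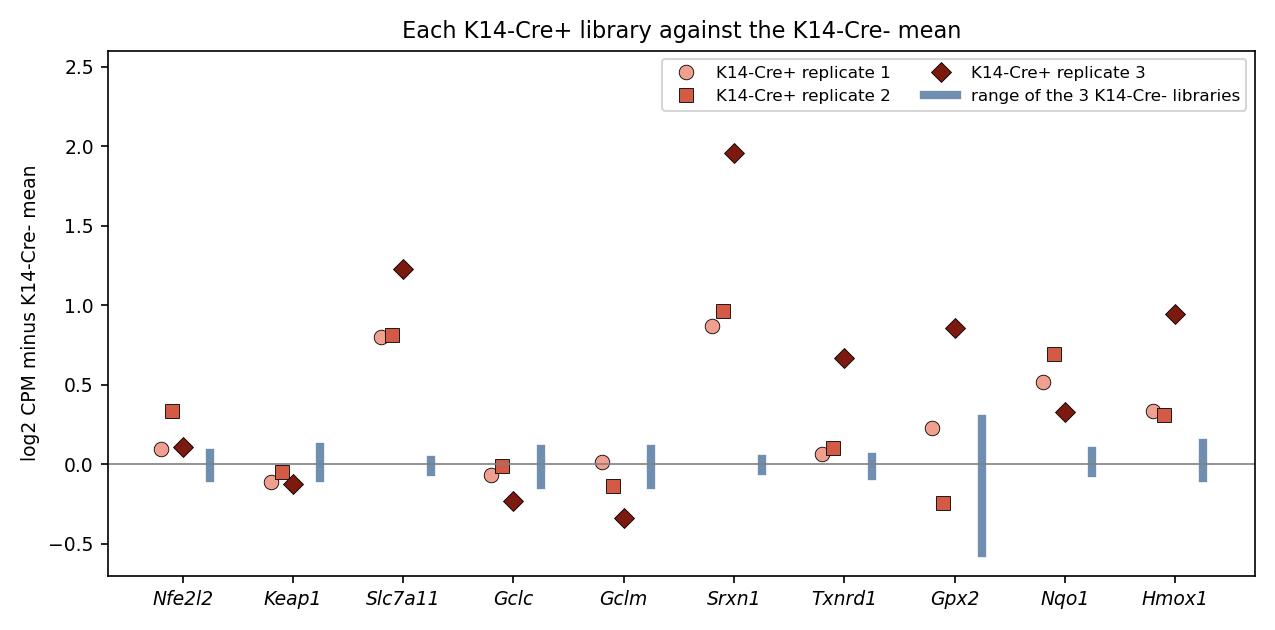
Log2 CPM of each gene in each K14-Cre+ library minus the K14-Cre- mean (vertical axis), with the range of the 3 K14-Cre- libraries as a bar. K14-Cre+ replicate 3 (diamonds) is highest for Slc7a11, Srxn1, Txnrd1, Gpx2 and Hmox1 and lowest for Gclc, Gclm and Keap1.

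Of the 13775 other genes ranked, the profiles most like that of Slc7a11 were those of Trim7 (distance 0.0674, log2 fold change 0.89, adjusted p = 0.0670), Tnik (0.0837, log2 fold change 0.93, adjusted p = 0.0339) and Zfp36 (0.0886, log2 fold change 0.86, adjusted p = 0.0478). For Srxn1 they were Cgref1 (0.0750, log2 fold change 1.38, adjusted p = 0.118), Duox1 (0.102, log2 fold change 1.25, adjusted p = 0.119) and Htr1b (0.140, log2 fold change 1.11, adjusted p = 0.124). The group difference is part of each profile, so similar fold changes in these genes follow from the ranking and are not a separate result.

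Levels between genes were compared as RPKM, which scales counts to library size and to exon length in kilobases. Txnrd1 (78.6 ± 19.6 RPKM) and Hmox1 (68.4 ± 18.1 RPKM) were the most abundant in K14-Cre+ cells, against 63.6 ± 2.71 and 46.4 ± 3.85 RPKM in K14-Cre- cells (SD, n = 3 each). In K14-Cre+ cells Srxn1, Keap1, Nfe2l2 and Gclc followed at 16.9, 14.8, 14.5 and 13.8 RPKM, neighbours that did not differ beyond their spread. In K14-Cre- cells Keap1, Gclc and Nfe2l2 came before Srxn1, at 15.8, 14.8, 12.8 and 6.64 RPKM, and Keap1 and Gclc overlapped. Slc7a11 was among the least abundant, at 2.58 ± 0.455 RPKM in K14-Cre+ cells and 1.33 ± 0.0367 RPKM in K14-Cre- cells. It stood below Nqo1 in K14-Cre- cells, without overlap, and overlapped it in K14-Cre+ cells. This order rests on exon lengths of 11245 bases for Slc7a11 and 1553 bases for Nqo1. In CPM, Slc7a11 was above Nqo1 in both groups.

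Of 16 other genes of glutathione synthesis and recycling, 0 were called by edgeR or limma-voom, and 0 were higher and 2 lower at an unadjusted p under 0.05. DESeq2 called 0 higher and 2 lower. Over all genes tested, 10.3% were higher and 8.48% lower at an edgeR unadjusted p under 0.05. DESeq2 called 3.99% of all genes higher and 2.06% lower. These shares apply to each list below as well. The median log2 fold change of the 16 genes was -0.15. Cbs, which commits homocysteine to cysteine synthesis, averaged 29.3 CPM in K14-Cre+ cells and 41.2 CPM in K14-Cre- cells (log2 fold change -0.49, SE 0.10, adjusted p = 0.0883). Gss, glutathione synthetase, averaged 16.4 CPM in K14-Cre+ cells and 21.8 CPM in K14-Cre- cells (log2 fold change -0.41, SE 0.10, adjusted p = 0.127).

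Of 28 listed glutathione peroxidases and transferases, 24 had enough counts to be tested. edgeR and limma-voom called 0 of them, DESeq2 called 2 higher and 0 lower, and 2 were higher and 3 lower at an unadjusted p under 0.05. The median was -0.06. Gsto1, a glutathione transferase of the omega class, averaged 252 CPM in K14-Cre+ cells and 162 CPM in K14-Cre- cells (log2 fold change 0.64, SE 0.12, adjusted p = 0.0793). Mgst1, a microsomal transferase, averaged 23.3 CPM in K14-Cre+ cells and 32.0 CPM in K14-Cre- cells (log2 fold change -0.46, SE 0.13, adjusted p = 0.165).

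All 12 thioredoxin and peroxiredoxin genes were tested, and edgeR, DESeq2 and limma-voom called 0, with 1 higher and 1 lower at an unadjusted p under 0.05 and a median of -0.04. Txn1, the thioredoxin that Txnrd1 reduces, averaged 183 CPM in K14-Cre+ cells and 144 CPM in K14-Cre- cells (log2 fold change 0.35, SE 0.13, adjusted p = 0.225).

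Among 18 tested genes of NADPH supply, detoxification and efflux, edgeR called 1 higher and 0 lower, as did DESeq2. With limma-voom 0 were called. At an edgeR unadjusted p under 0.05, 4 were higher and 2 lower, against 10.3% and 8.48% of all genes. The median was 0.03. The gene called was Ephx1, the microsomal epoxide hydrolase. It had 54.0, 65.2 and 42.8 CPM in K14-Cre+ libraries, against 22.5, 27.5 and 25.4 CPM in K14-Cre- libraries. All K14-Cre+ libraries were higher (log2 fold change 1.10, SE 0.16, adjusted p = 0.0445). Its call was lost under limma-voom (adjusted p = 0.0524), with total count scaling (0.107), with sex as a covariate (0.0534), in the test against a 1.5-fold change (0.519) and without any 1 library other than K14-Cre+ replicate 3 (0.0855 to 0.263). G6pdx, the entry enzyme of the pentose phosphate route to NADPH, averaged 99.8 CPM in K14-Cre+ cells and 79.5 CPM in K14-Cre- cells (log2 fold change 0.33, SE 0.11, adjusted p = 0.193), and Idh1 averaged 85.3 CPM in K14-Cre+ cells and 120.2 CPM in K14-Cre- cells (log2 fold change -0.49, adjusted p = 0.192).

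Of 8 heme and iron genes edgeR and limma-voom called 0, with 1 higher and 2 lower at an unadjusted p under 0.05 and a median of -0.10, while DESeq2 called 1 higher. Fech, ferrochelatase, which inserts iron into heme, averaged 61.2 CPM in K14-Cre+ cells and 50.2 CPM in K14-Cre- cells (log2 fold change 0.29, SE 0.07, adjusted p = 0.134), and Blvrb, a biliverdin reductase, averaged 9.12 RPKM in K14-Cre+ cells and 11.3 RPKM in K14-Cre- cells (log2 fold change -0.31, SE 0.08, adjusted p = 0.137). The groups of both genes did not overlap. Those of Tfrc did. Tfrc, the transferrin receptor, averaged 68.7 CPM in K14-Cre+ cells and 113 CPM in K14-Cre- cells (log2 fold change -0.72, SE 0.28, adjusted p = 0.238). The 4 superoxide dismutase and catalase genes had 0 called by edgeR, DESeq2 and limma-voom, with 1 higher and 1 lower at an unadjusted p under 0.05. Sod3, the extracellular dismutase, had 3.93, 4.61 and 31.2 RPKM in K14-Cre+ libraries, against 1.78, 2.97 and 3.40 RPKM in K14-Cre- libraries. K14-Cre+ replicate 3 was far above the other libraries (log2 fold change 2.28, SE 0.82, adjusted p = 0.215), and without it the log2 fold change was 0.65.

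Of 16 partners and controllers of NRF2, edgeR, DESeq2 and limma-voom called 0, and 4 were higher and 1 lower at an unadjusted p under 0.05. The median was 0.12. Maff, a small MAF partner, averaged 42.1 CPM in K14-Cre+ cells and 29.3 CPM in K14-Cre- cells (log2 fold change 0.52, SE 0.17, adjusted p = 0.188). Bach1, a repressor that competes with NRF2 for its sites and for Hmox1 in particular, averaged 121 CPM in K14-Cre+ cells and 94.5 CPM in K14-Cre- cells (log2 fold change 0.35, SE 0.12, adjusted p = 0.211).

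ATF4 also drives Slc7a11 when amino acids run short. Of 17 genes of this response edgeR called 0, with 2 higher and 1 lower at an unadjusted p under 0.05 and a median of -0.02, while DESeq2 called 2 higher and limma-voom 0. Sesn2, a stress-induced sestrin, had a log2 fold change of 0.66 (SE 0.13, adjusted p = 0.0785) and Slc7a5, which pairs with the same heavy chain as Slc7a11, one of 0.43 (SE 0.07, adjusted p = 0.0653). Atf4 averaged 177 CPM in K14-Cre+ cells and 157 CPM in K14-Cre- cells (adjusted p = 0.338).

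Immediate early genes, which respond within minutes to stimuli and to tissue dissociation, were listed together with the heat shock genes Hspa1a and Hspa1b. This list had the most calls of the 9 related lists, 1 of which shares Atf3 with it. Of 12, edgeR called 3 higher and 0 lower, against 0.406% of all genes higher, and 9 were higher at an unadjusted p under 0.05, against 10.3%. DESeq2 called 9 higher, against 3.99%, and limma-voom 2, against 0.335%, and the median log2 fold change was 0.66. edgeR's count was 1 with total count scaling, 1 with sex as a covariate and 0 in the 1.5-fold test. Fos averaged 216 CPM in K14-Cre+ cells and 93.1 CPM in K14-Cre- cells (log2 fold change 1.21, SE 0.12, adjusted p = 0.0181). Ier2 (log2 fold change 0.55, adjusted p = 0.0339) and Zfp36, which is also close to Slc7a11 in profile (log2 fold change 0.86, adjusted p = 0.0478), were the other 2 called. Atf3, Hspa1a and Hspa1b overlapped between the groups and were not called. Their log2 fold changes were -0.24, 0.20 and 0.18 (edgeR adjusted p = 0.620, 0.342 and 0.412). Without K14-Cre+ replicate 2 or any 1 K14-Cre- replicate Fos was not called (adjusted p 0.0831 to 0.168), and Ier2 and Zfp36 were not called without any 1 library other than K14-Cre+ replicate 3, whose absence gave 7 calls in the list. The part of dissociation in the Slc7a11 and Srxn1 results was not tested.

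**Figure D5:**
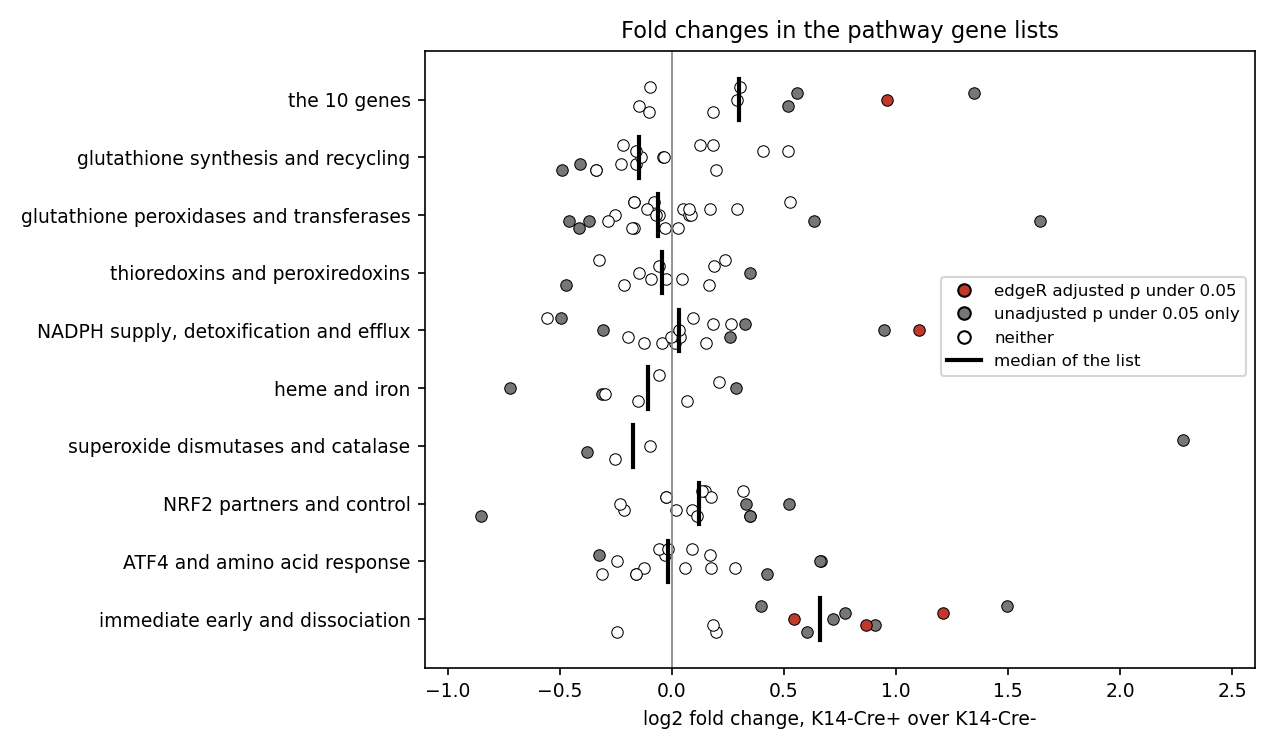
Log2 fold change, K14-Cre+ over K14-Cre- (horizontal axis), of each tested gene in the 10 genes and in 9 related lists (rows), with the median of each list as a bar. Medians lie between -0.17 and 0.12 for 8 lists, at 0.30 for the 10 genes and at 0.66 for immediate early and dissociation genes.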

How the data were processed

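RNA-seq libraries of CD49f+ epidermal cells were compared between K14-Cre+ and K14-Cre- groups, 3 each, grouped by the labels. Unnormalized counts of reads and the exon length of each gene were deposited by the authors, per the file headers. Alignment with GSNAP and counting with featureCounts on mm10 are named in the submitters' processing notes. Neither versions nor the strand setting is given there, so reads of overlapping antisense genes cannot be told apart. No label says that replicates are separate animals, although both sexes occur in each group, so p-values measure the spread between these samples, which may be partly technical.

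Genes passing edgeR's expression filter (minimum count 10) were scaled by TMM and tested with edgeR 4.0.16 (quasi-likelihood, R 4.3.3) with Benjamini-Hochberg adjustment over 15525 genes. DESeq2 1.42.0, limma 3.58.1 (voom), other scalings and filters, sex as a covariate, a 1.5-fold change as the null and the omission of single libraries were the alternatives. The fit was tested on simulated data with 200 changed genes. CPM and RPKM used TMM library sizes. A count of 3, taken as the floor for a gene listed at 0, was 0.0922 to 0.143 CPM, for counting error only. Ratios within libraries were compared by exact permutation tests.

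Sequences are RefSeq promoter windows on GRCm38.p6, searched on both strands. The genes and lists were chosen with earlier results of these data known. Named genes are the 10, Rnaseh2b, Slc3a2, up to 4 of each list by smallest unadjusted p, of which some are printed, the most abundant marker of a list, and the 3 genes nearest in profile to Slc7a11 and to Srxn1. The exceptions are Atf4, the gene its list is named for, Atf3, Hspa1a and Hspa1b, and the genes in the closing section. 2 marker symbols found no match and were left out.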

Additional observations from a re-analysis of the deposited data

How the results depend on the processing

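The count of the 10 genes called higher was 1, and it was 3 with DESeq2, 0 in the test against a 1.5-fold change and 0 to 2 when single libraries were left out; the count called lower was 0 under every alternative run. Over all genes, 63 were called higher and 17 lower. The counts were 27 higher and 14 lower with total count scaling, which moved the median log2 fold change of all genes to -0.118, 104 higher and 38 lower with no filter beyond 1 count, 559 and 288 with DESeq2, 34 and 8 with sex as a covariate, and 2 and 1 in the 1.5-fold test. Leaving out single libraries gave 0 to 288 higher and 0 to 134 lower, the highest counts without K14-Cre+ replicate 3. The calls lost without single libraries in the sections above come from these same fits, in some of which Rnaseh2b also lost its call. Slc7a11 kept its call with total count scaling (adjusted p = 0.0389), sex as a covariate (0.0416) and limma-voom (0.0471), and lost it in the 1.5-fold test (0.596). Gpx2 reversed, to -0.028, without K14-Cre+ replicate 3, and ranged up to 0.51 without other single libraries. Without single libraries the log2 difference of the ratios was 0.22 to 0.31 for Nfe2l2 to Keap1, 0.69 to 0.80 for Slc7a11 to Slc3a2, 0.011 to 0.11 for Gclc to Gclm, 0.85 to 1.16 for Slc7a11 to Gclc and 0.83 to 1.07 for Srxn1 to Txnrd1. No paired analysis was possible because the labels give no replicate numbers shared between groups. The cause of these shifts was not tested. Gpx2 and Nqo1 had the fewest counts, and the part of depth in their results was not tested.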

Other observations

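2 further lists were read after Duox1 had been seen among the genes closest to Srxn1 in profile, so they support nothing by themselves. Duox1 encodes a dual oxidase, which makes hydrogen peroxide at the cell surface. It had 19.6, 17.6 and 39.2 CPM in K14-Cre+ libraries, against 10.6, 10.4 and 11.1 CPM in K14-Cre- libraries. No libraries overlapped, K14-Cre+ replicate 3 was the highest, and the difference did not pass edgeR's test (log2 fold change 1.25, SE 0.30, adjusted p = 0.119). Duoxa1, the factor that brings it to the surface, averaged 19.8 ± 7.33 CPM in K14-Cre+ cells and 9.99 ± 1.18 CPM in K14-Cre- cells (log2 fold change 0.98, SE 0.25, adjusted p = 0.132). Of 12 tested NADPH oxidase genes edgeR and limma-voom called 0. DESeq2 called these 2 higher, against 3.99% of all genes. At an edgeR unadjusted p under 0.05 there were 2 of the 12, against 18.8% of all genes, and the median log2 fold change was 0.02.

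Txnrd1 and Gpx2 are selenoproteins. Of a list of 19 other genes of selenoproteins and selenocysteine machinery edgeR, DESeq2 and limma-voom called 0, with a median of -0.05. In this list 1 gene had an edgeR unadjusted p under 0.05, against 18.8% of all genes. That gene was Dio2, which activates thyroid hormone, with 5.10 CPM in K14-Cre+ cells and 7.69 CPM in K14-Cre- cells (log2 fold change -0.59, adjusted p = 0.255). The list leaves out the selenoprotein genes Gpx1, Gpx3, Gpx4, Txnrd2 and Txnrd3, which belong to lists above. Of these, Gpx3 (log2 fold change 1.64, edgeR adjusted p = 0.169) and Txnrd2 (-0.47, adjusted p = 0.204) also had an unadjusted p under 0.05.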
